A study of Drosophila melanogaster with 4 samples.

Results

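The genes described are 10 components of the JAK-STAT pathway, out of 14664 genes measured by RNA sequencing in testes of Drosophila melanogaster. They were chosen by name: the ligands upd2 and upd3, the receptor dome and its relative et, the kinase hop, the transcription factor Stat92E, and the negative regulators Socs36E, Ptp61F, Su(var)2-10 and ken. All 10 had a value in every library, 9 of them under these names, and et, which the tables list as CG14225, was matched by its gene identifier. The flies carried mutations in both Phf7 and bam (Phf7-bam- in the labels, Phf7 bam from here on) or in bam alone (bam-), so the bam mutation was shared by all samples. Each genotype had 2 libraries, called biological replicates in the labels, from oligo-dT selected RNA of whole testes of flies within 3 days of eclosion. The labels give neither the alleles nor the number of testes in a library. Without bam, germ cells keep dividing as spermatogonia and do not become spermatocytes, so the testis is rich in early germ cells, and Phf7 encodes a PHD finger protein with a role in male germline identity. The comparison asks which transcripts differ when Phf7 is lost in such a testis.

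JAK-STAT signalling starts when a secreted Unpaired ligand binds the receptor Domeless, which lets the kinase Hopscotch phosphorylate Stat92E, the only STAT of the fly. In the testis, the ligand comes from the hub, a small cluster of somatic cells at the tip, and acts on the germline stem cells and somatic cyst stem cells attached to it. There the pathway is known for the self-renewal of cyst stem cells and for holding germline stem cells at the hub. Whole testes were sequenced, so the values below sum over all cells of the organ, and fewer cells of a type cannot be told apart from less RNA per cell.

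The genotype labels were checked with the level of Phf7. Phf7 was at 18.8 and 22.9 FPKM (fragments scaled to transcript length and library size) in Phf7 bam testes, against 173.2 and 152.0 FPKM in bam testes, a change of -2.91 (SE 0.147, limma adjusted p = 0.00706). Without Phf7 bam replicate 1 or replicate 2 the change was -2.77 and -3.05 (limma adjusted p = 0.141 and 0.105), and with no filter on low values it was -2.91 (limma adjusted p = 0.192), settings in which limma called 0 of all genes (1432, 979 and 1051 had an unadjusted p under 0.05). bam, mutated in both genotypes and so no check of the labels, had 27.6 and 32.6 FPKM in Phf7 bam testes and 28.6 and 26.5 FPKM in bam testes. The germ cell RNA helicase vas, with 173.4 and 186.2 FPKM in Phf7 bam testes and 188.0 and 172.5 FPKM in bam testes, was high in all 4 libraries. Summed over 6 germline markers the level was 643.1 and 724.9 FPKM in Phf7 bam testes, against 630.3 and 590.9 FPKM in bam testes. Of 4 hub markers, which summed to 35.0 and 40.5 FPKM in Phf7 bam testes and to 38.5 and 41.9 FPKM in bam testes, none was at 0, and most of the sum came from Fas3, an adhesion protein. The 4 cyst lineage markers summed to 43.8 and 51.3 FPKM in Phf7 bam testes and to 43.3 and 46.0 FPKM in bam testes.

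Changes are differences of Phf7 bam minus bam on the log2(FPKM + 1) scale, tested with limma in 1 fit over the 8965 genes with a mean of at least 1 FPKM, and a gene was called at a Benjamini-Hochberg adjusted p under 0.05. Of the 10 pathway genes 7 passed this filter, and none of the 7 was called in either direction, where 0.234% of all tested genes were. None of the 7 had an unadjusted p under 0.05, against 6.13% of tested genes, and limma with robust moderation called none of them, against 3.42%. The 7 changes lay between -0.15 and 0.22 with a median of -0.03, and the median over all tested genes was 0.03. Regardless of sign, the median size of the change was 0.11 in the 7 genes and 0.11 in all tested genes. The limma adjusted p of the 7 genes lay between 0.906 and 0.988. Over the 7 genes the 95% intervals of the change extended from -0.48 to 0.73, which is 0.715-fold to 1.66-fold on this scale. Larger changes lie outside the interval of every tested pathway gene, and changes inside these intervals remain possible at 2 libraries per genotype.

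**Figure D1:**
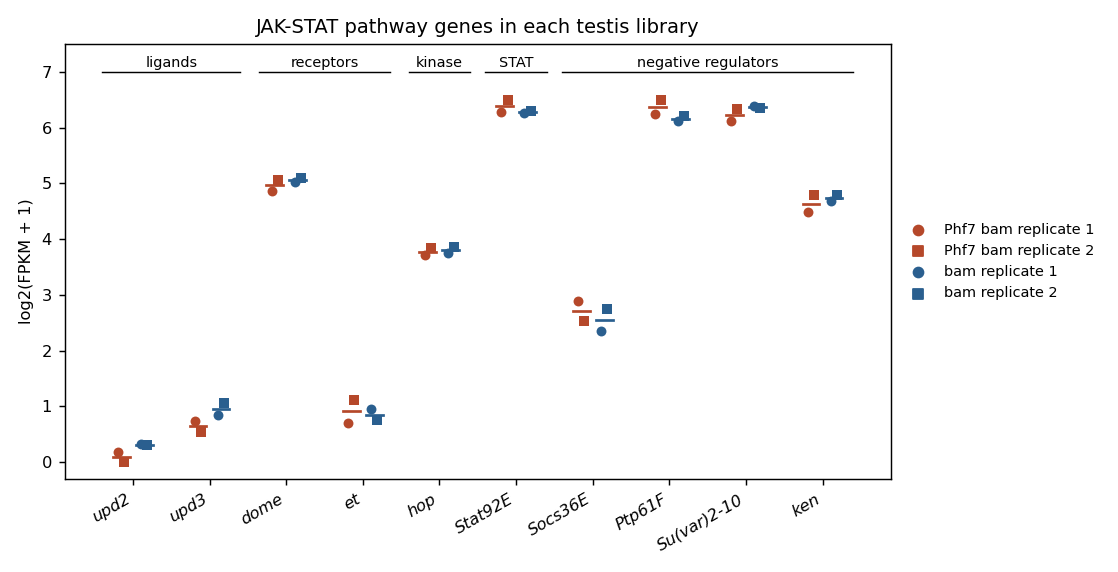
Level of each pathway gene in each library as log2(FPKM + 1), with Phf7 bam testes left of bam testes for each gene; points are libraries and short lines are the means of 2 libraries. The genotypes sit at nearly the same height in each of the 7 tested genes, while the levels span from upd2, listed at 0 in Phf7 bam replicate 2, to Ptp61F at 89.7 FPKM in the same library.

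The genes of the pathway differed far more from each other than between genotypes. FPKM is scaled to transcript length, so levels can be set side by side. Stat92E (mean over the 4 libraries 79.8 ± 6.45 FPKM, SD, n = 4), Su(var)2-10 (78.0 ± 6.70 FPKM) and Ptp61F (76.3 ± 9.33 FPKM) were the most abundant, and the ranges of these neighbours over the libraries overlapped. They were followed by dome (31.4 ± 2.25 FPKM), ken (24.9 ± 2.55 FPKM), hop (12.9 ± 0.721 FPKM) and Socs36E (5.27 ± 1.03 FPKM), each with a range over the 4 libraries that did not reach that of the next. et (0.856 ± 0.250 FPKM) and upd3 (0.757 ± 0.259 FPKM) overlapped, and upd2 was the lowest. Among all 14664 genes, the mean of Stat92E stood at percentile 93.3, that of hop at 64.4 and that of upd2 at 27.0. The kinase RNA was thus scarcer than that of its receptor and of its STAT, with a ratio of Stat92E to hop of 6.33 and 6.69 in Phf7 bam testes and of 6.08 and 5.72 in bam testes.

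**Figure D2:**
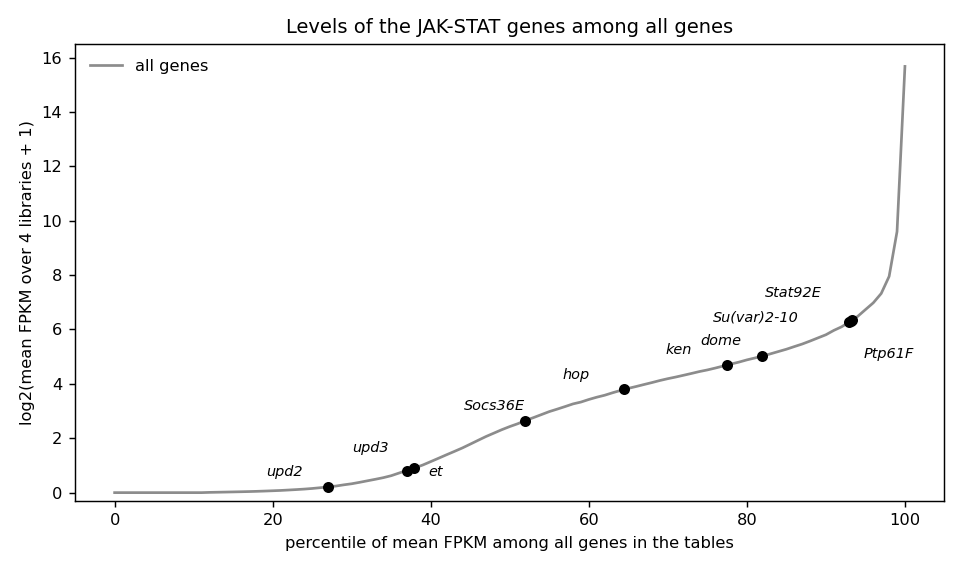
Mean level over the 4 libraries, as log2(mean FPKM + 1), against the percentile of that mean among all 14664 genes; the grey curve is all genes and points are the 10 pathway genes. Stat92E, Su(var)2-10 and Ptp61F lie together near percentile 93, and upd2, upd3 and et lie below percentile 38.

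The Unpaired ligands had very low values in all libraries. upd2 (dm3, X, 18135381 to 18137038), a ligand made in the fat body among other tissues, had 0.129 FPKM in replicate 1 of Phf7 bam testes and was listed at 0 in the other, against 0.250 and 0.244 FPKM in the bam libraries. upd3 (X, 18171266 to 18178632), a ligand induced by stress and damage and made by haemocytes among other cells, had 0.679 and 0.460 FPKM in Phf7 bam testes, against 0.808 and 1.08 FPKM in bam testes. In both ligand genes the Phf7 bam libraries lay below the bam libraries without overlap, as in 12.1% of all 14664 genes. Both had a mean under 1 FPKM and so were outside the main test. With no filter, the change of upd3 was -0.31 (SE 0.125, 95% interval -0.73 to 0.11, limma adjusted p = 0.819). That of upd2 had a limma adjusted p of 0.747, with no fold change given because of the listed 0.

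The first described ligand of the family, upd1 (os in the tables), which hub cells secrete, was also low. It stood at 0.195 and 0.207 FPKM in Phf7 bam testes, against 0.258 and 0.276 FPKM in bam testes. upd1 is no member of the chosen set and comes from the list of other pathway genes. The loci of upd2, upd3 and upd1 lie within 67641 bp of X, with upd3 between the others, and none of these 3 genes overlapped another gene of the tables. Summed over the 3 ligands the level was 1.004 and 0.666 FPKM in Phf7 bam testes, against 1.32 and 1.60 FPKM in bam testes. In upd1, too, both Phf7 bam libraries lay below both bam libraries, as in 12.1% of all 14664 genes. With no filter, the change of upd1 was -0.078 (SE 0.0119, 95% interval -0.118 to -0.037, limma adjusted p = 0.426), a setting in which limma called 0 of all genes. The number of fragments behind such low values is unknown, and the sum was not tested.

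Of the receptors, dome was abundant and et was low, although they are neighbours. dome (X, 19570090 to 19577549), the signalling receptor, had 28.2 and 32.5 FPKM in Phf7 bam testes, against 31.6 and 33.3 FPKM in bam testes. The genotypes overlapped, and the change was -0.10 (SE 0.119, 95% interval -0.41 to 0.22, limma adjusted p = 0.969). et (X, 19566669 to 19569992), also named eye transformer or latran, encodes a shorter relative of dome that is known to antagonise signalling. It had 0.627 and 1.17 FPKM in Phf7 bam testes, against 0.936 and 0.687 FPKM in bam testes, so the bam libraries lay between the Phf7 bam libraries. Its mean was under 1 FPKM, and with no filter its change was 0.06 (SE 0.199, 95% interval -0.61 to 0.73). The loci lie 97 bp apart on the same strand without overlap. dome exceeded et by 44.9 and 27.7 times in the Phf7 bam libraries and by 33.7 and 48.4 times in the bam libraries, while dome ranged from 28.2 to 33.3 FPKM and et from 0.627 to 1.17 FPKM.

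The kinase and the STAT were present in all libraries at levels that overlapped between the genotypes. hop (X, 11254932 to 11262130), the only Janus kinase of the fly, had 12.1 and 13.4 FPKM in Phf7 bam testes, against 12.4 and 13.6 FPKM in bam testes. The groups overlapped, and its change of -0.03 was the smallest of the 7 (SE 0.114, 95% interval -0.33 to 0.27, limma adjusted p = 0.988). The hop locus overlaps CG11750 by 38 bp. No strand was found for CG11750, so whether reads of this stretch could be told apart by strand is unknown. Stat92E (3R, 16361405 to 16378034) had 76.5 and 89.4 FPKM in Phf7 bam testes, against 75.6 and 77.7 FPKM in bam testes. Phf7 bam replicate 2 was the highest library and replicate 1 lay between the bam libraries. The change of Stat92E was 0.11 (SE 0.124, 95% interval -0.22 to 0.44, limma adjusted p = 0.964).

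**Figure D3:**
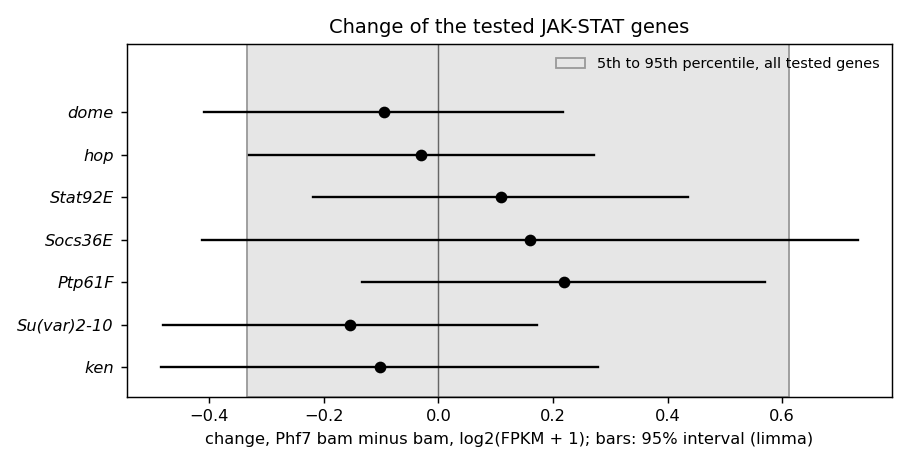
Change of the 7 tested pathway genes, Phf7 bam minus bam, on the log2(FPKM + 1) scale; points are limma estimates, bars are 95% intervals and the grey band holds the 5th to 95th percentile of the change over all 8965 tested genes (-0.33 to 0.61). All 7 intervals include 0, and all 7 points lie inside the band.

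Among the negative regulators, Socs36E is itself a target of Stat92E and is widely used as a readout of pathway activity. It encodes a SOCS box protein that limits signalling by the receptor and kinase. Socs36E (2L, 18138668 to 18152410) had 6.47 and 4.76 FPKM in Phf7 bam testes, against 4.12 and 5.73 FPKM in bam testes. The groups overlapped, with the highest and the next to lowest value both in Phf7 bam testes. Its change of 0.16 had the widest error of the 7 (SE 0.217, 95% interval -0.41 to 0.73, limma adjusted p = 0.975).

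Ptp61F, a protein tyrosine phosphatase that acts on hop and Stat92E, had the largest change of the 7. Ptp61F (3L, 1342490 to 1424979) had 75.0 and 89.7 FPKM in Phf7 bam testes, against 68.1 and 72.6 FPKM in bam testes. Both Phf7 bam libraries lay above both bam libraries, as in 20.5% of tested genes. The change was 0.22 (SE 0.134, 95% interval -0.13 to 0.57, limma adjusted p = 0.906). Its locus of 82490 bp contains or overlaps other genes, among them ru, a rhomboid protease, with 2.67 and 2.62 FPKM in Phf7 bam testes and 1.87 and 2.29 FPKM in bam testes. For genes on the opposite strand, such as ru, reads of shared stretches are uncertain here too if strand was not used. CG9173 overlaps the locus by 1599 bp on the same strand as Ptp61F, so strand would not tell reads of that stretch apart.

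Su(var)2-10, the PIAS SUMO ligase of the fly, which binds and inhibits Stat92E and also acts on chromatin, had a change of the opposite sign to that of Ptp61F. Su(var)2-10 (2R, 5003631 to 5009507) had 68.2 and 79.6 FPKM in Phf7 bam testes, against 83.2 and 81.0 FPKM in bam testes. Both Phf7 bam libraries lay below both bam libraries, as in 14.0% of tested genes, with replicate 2 only just below. The change was -0.15 (SE 0.124, 95% interval -0.48 to 0.17, limma adjusted p = 0.923).

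ken (2R, 19757798 to 19764965), also called ken and barbie, encodes a BCL6-like zinc finger repressor that silences a subset of Stat92E targets. It had 21.4 and 26.7 FPKM in Phf7 bam testes, against 24.7 and 26.8 FPKM in bam testes. The groups overlapped, and the change was -0.10 (SE 0.145, 95% interval -0.48 to 0.28, limma adjusted p = 0.975). Among the 4 negative regulators 2 changes were positive and 2 were negative, and none was called.

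Phf7 bam replicate 2 lay above replicate 1 in 83.6% of all tested genes, and in 6 of the 7 tested pathway genes, all but Socs36E, a share near that of all genes. In bam testes replicate 2 lay above replicate 1 in the 6 tested genes other than Su(var)2-10, against 50.5% of all tested genes. Of the 10 genes, 1 had both Phf7 bam libraries above both bam libraries and 3 had both below, against 17.5% and 12.1% of all 14664 genes.

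A further 27 genes of the pathway were measured, as 17 ligands, regulators and partners and 10 targets. Of these, 22 passed the filter and none was called (0.234% of all tested genes were). An unadjusted p under 0.05 was found in 3 of the 22, Cdk4, TotA and TotC, against 6.13% of all tested genes. Changes of the 22 genes had a median of -0.0037, and 11 were positive, against 57.4% of all tested genes.

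Apart from Cdk4, the tested regulators and partners had changes between -0.17 and 0.19. The SUMO gene smt3, whose product Su(var)2-10 attaches to its substrates, had the highest level, with 1894 and 2281 FPKM in Phf7 bam testes, against 2026 and 2043 FPKM in bam testes (change 0.03, SE 0.151, limma adjusted p = 0.989). With all 4 libraries, the largest positive change among them was that of arj, an endosomal regulator of blood cell JAK-STAT activity, with 38.2 and 44.6 FPKM in Phf7 bam testes and 37.1 and 34.9 FPKM in bam testes (change 0.19, SE 0.124, limma adjusted p = 0.906). Without Phf7 bam replicate 1 the change of arj was 0.30, and without replicate 2 it was 0.085. arj overlaps Gmer by 11 bp. Cdk4, the kinase partner of Cyclin D, whose complex is known to interact with Stat92E, had 12.9 and 12.2 FPKM in Phf7 bam testes, against 20.1 and 18.2 FPKM in bam testes. The groups did not overlap, and the change was -0.57 (SE 0.110, 95% interval -0.86 to -0.28, limma adjusted p = 0.317). Robust moderation gave a limma adjusted p of 0.0116, in a range of 0.0116 to 1 over all alternatives. CycD itself had 14.0 and 15.6 FPKM in Phf7 bam testes and 13.4 and 14.0 FPKM in bam testes (limma adjusted p = 0.962).

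**Figure D4:**
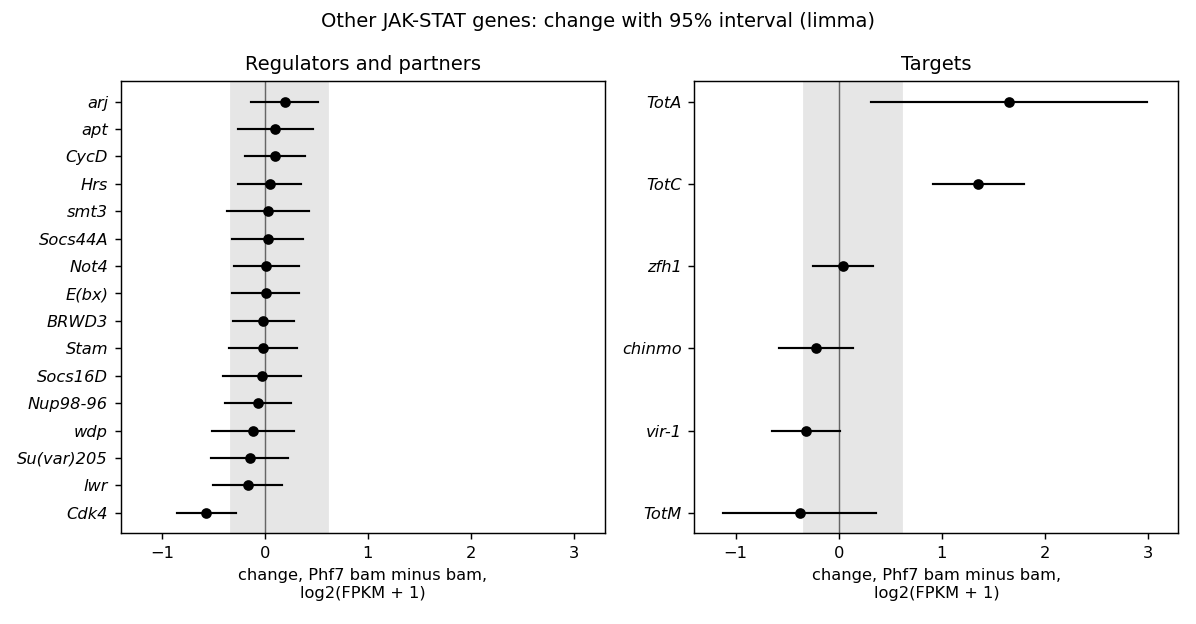
Change of the 16 tested regulators and partners (left) and the 6 tested targets (right), Phf7 bam minus bam, on the log2(FPKM + 1) scale; points are limma estimates, bars are 95% intervals and the grey band holds the 5th to 95th percentile over all tested genes. Cdk4 at -0.57 lies below the band, TotC at 1.36 and TotA at 1.66 lie above it, and TotM at -0.38 lies just below it with an interval that includes 0.

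Of the 10 target genes 6 were tested. chinmo and zfh1, transcription factors that Stat92E activates in cyst stem cells, were present in all libraries. chinmo had 32.0 and 38.6 FPKM in Phf7 bam testes, against 43.1 and 39.3 FPKM in bam testes, a change of -0.22 (SE 0.137, limma adjusted p = 0.906). zfh1 had 20.6 and 23.2 FPKM in Phf7 bam testes, against 20.9 and 21.3 FPKM in bam testes, a change of 0.04 (SE 0.111, limma adjusted p = 0.985). vir-1, a virus-induced target, had the highest level of the list, with 91.2 and 107.0 FPKM in Phf7 bam testes, against 123.1 and 124.1 FPKM in bam testes (change -0.32, SE 0.126, 95% interval -0.65 to 0.01, limma adjusted p = 0.826). In chinmo and vir-1, the only 2 of the 10 targets to do so, both Phf7 bam libraries lay below both bam libraries (12.1% of all 14664 genes did). eyg, fj and slbo, targets known from the eye and the ovary, stayed under 1 FPKM in all 4 libraries.

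The Turandot genes encode small secreted stress peptides made mainly in the fat body, some of them through JAK-STAT signalling. TotA (3R, 16696758 to 16697427) had 14.0 and 16.2 FPKM in Phf7 bam testes, against 2.03 and 7.60 FPKM in bam testes (change 1.66, SE 0.509, 95% interval 0.31 to 3.00, limma adjusted p = 0.672). Without bam replicate 2, its change was 2.41 (limma adjusted p = 0.0161), and without bam replicate 1 it was 0.90 (limma adjusted p = 0.666). TotC (3R, 16698710 to 16699310) had 5.64 and 5.66 FPKM in Phf7 bam testes, against 1.77 and 1.44 FPKM in bam testes (change 1.36, SE 0.167, 95% interval 0.92 to 1.80, limma adjusted p = 0.147). Robust moderation gave a limma adjusted p of 1.28e-08, in a range of 1.28e-08 to 0.412 over all alternatives. TotX, a member of the same family on 3R, had 0.983 and 0.722 FPKM in Phf7 bam testes and was listed at 0 in both bam libraries. In these 3 genes both Phf7 bam libraries lay above both bam libraries, as in 17.5% of all 14664 genes, and TotC was described for its call with robust moderation, after its values were seen. TotM, on 2L, had the most negative change of the list with all 4 libraries, with 4.48 and 6.68 FPKM in Phf7 bam testes, against 9.46 and 5.81 FPKM in bam testes (change -0.38, SE 0.283, limma adjusted p = 0.919). Without replicate 1 of Phf7 bam or of bam its change was -0.14 and -0.071, and that of vir-1 was then lower (-0.21 and -0.33). Without replicate 2 of Phf7 bam or of bam the change of TotM was -0.62 and -0.69.

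The sums of fat body, haemocyte and gut markers were higher in both Phf7 bam libraries, as were TotA, TotC and TotX. The sum of the 6 germline markers given above was higher too. Of these 6, 3 were higher on their own and none was lower (17.5% and 12.1% of all 14664 genes were). The 10 fat body markers, none of which was at 0 in any library, summed to 64.8 and 81.9 FPKM in Phf7 bam testes, against 33.2 and 45.2 FPKM in bam testes. In 4 of the 10 both Phf7 bam libraries lay above both bam libraries and in 2 both lay below, where 17.5% and 12.1% of all 14664 genes did so. Lsp2, a larval storage protein with the largest change of the tested fat body markers, had 18.0 and 19.7 FPKM in Phf7 bam testes. It had 2.38 and 7.12 FPKM in bam testes (limma adjusted p = 0.439). The 2 lower ones were Yp1 (0.115 and 0.0703 FPKM in Phf7 bam testes, 0.266 and 0.162 FPKM in bam testes) and Yp2 (0.494 and 0.475 FPKM, 0.706 and 0.576 FPKM). Fbp1, Lsp1alpha, Lsp1beta and apolpp overlapped between the genotypes. The 7 haemocyte markers summed to 68.2 and 79.4 FPKM in Phf7 bam testes, against 64.0 and 65.1 FPKM in bam testes, with 5 of the 7 higher in both Phf7 bam libraries (17.5% of all genes were) and He listed at 0 in all 4. Most of the sum came from crq, which overlapped between the genotypes (40.4 and 50.6 FPKM in Phf7 bam testes, 44.0 and 43.8 FPKM in bam testes). The sum of 5 gut markers was also higher in both Phf7 bam libraries, at 111.4 and 136.5 FPKM, against 91.1 and 66.1 FPKM in bam testes. Nearly all of it was Amy-p, with 103.6 and 135.3 FPKM in Phf7 bam testes, against 86.4 and 65.3 FPKM in bam testes. Amy-p was the only 1 of the 5 higher on its own (17.5% of all genes were). The 5 muscle markers summed to 428.3 and 493.6 FPKM in Phf7 bam testes and to 350.2 and 480.8 FPKM in bam testes, so their sums overlapped. The part of these cells in the Turandot values was not tested. upd2 and upd3, both very low, had their lower values in Phf7 bam testes, and which cells made them was not tested.

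**Figure D5:**
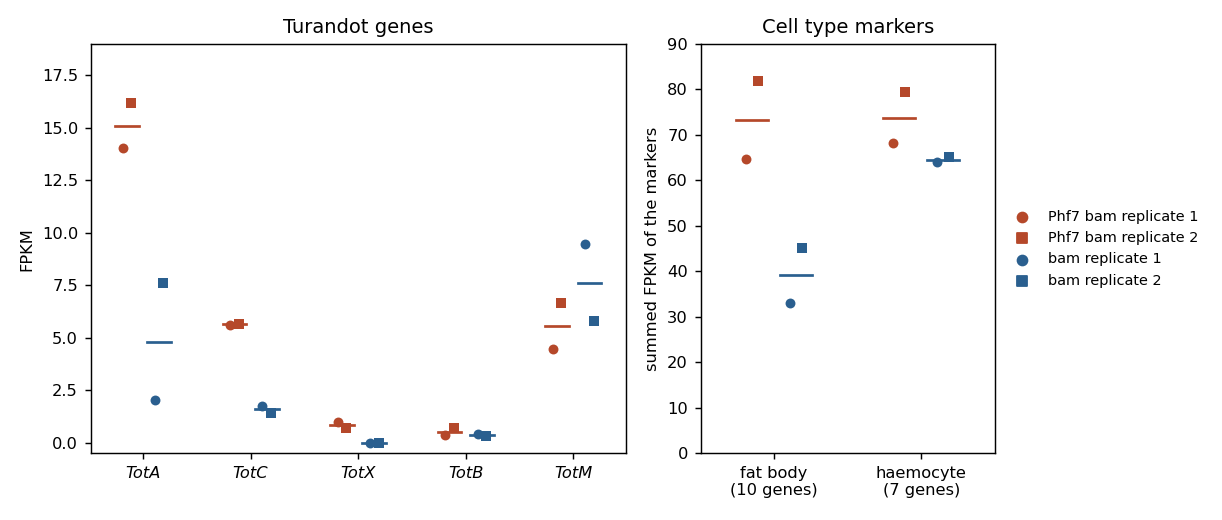
FPKM of 5 Turandot genes (left) and summed FPKM of the fat body and haemocyte markers (right) in each library, with Phf7 bam testes left of bam testes; points are libraries and short lines are the means of 2 libraries. TotA, TotC and TotX lie higher in both Phf7 bam libraries, as do both marker sums, while TotB and TotM overlap between the genotypes.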

How the data were processed

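Each library came with a table, deposited by the authors, of FPKM values for 14664 genes, per the file headers. Build dm3 and the tools TopHat2, Cufflinks and Cuffdiff are named in the submitters' processing notes, with annotation, settings and use of strand not given in the sources used here. FPKM values are not counts, so absolute depth is unknown. Steps between low FPKM values, up to 0.15, put depth relative to bam replicate 1 at 1.16 and 1.42 for the Phf7 bam replicates and 1.23 for bam replicate 2. Summed FPKM lay between 650127 and 662056 per library. The deposited intervals excluded their own FPKM in 13.1% to 16.9% of genes and were not used. Coordinates are those of the tables (dm3), counted from 1. Strand came from a later annotation, matched by identifier or name. No sequence was used here.

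A linear model of genotype alone was fitted to log2(FPKM + 1) values in R 4.3.3 with limma 3.58.1, with a trend on mean expression, two-sided tests and Benjamini-Hochberg adjustment over 8965 genes with a mean of at least 1 FPKM. The pseudocount understates changes of low genes. The prior added 2.64 to the 2 residual degrees of freedom. The fit was checked on simulated data. Where p-values are given, they measure the spread between libraries that the labels call biological replicates, drawn toward that of all genes. With robust moderation the median prior degrees of freedom over genes were infinite. For genes with such a prior the spread is taken from the trend over all genes. Their p-values with robust moderation then do not measure the spread between the gene's own libraries. Tables were joined with pandas 2.3.3 and numpy 2.4.6 in Python 3.11.15 and plotted with matplotlib 3.10.9.

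The members and lists were chosen with earlier results of these data known. All 10 pathway genes are named, with Phf7 and bam. From the other pathway genes, the highest level, the largest increase and the largest decrease of each list are named. Further genes were named after their values were seen or as parts of the lists. Alternatives were pseudocounts of 0.1 and 0.5, no filter or a mean of at least 5 FPKM, a replicate block, quantile normalization, equal medians, robust moderation, no trend, genes of status OK throughout and each library left out. A crossed pairing was added after seeing the data.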

Additional observations from a re-analysis of the deposited data

How the results depend on the processing

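None of the 7 tested pathway genes was called under any of 15 alternatives, 14 of them planned and 1 added after seeing the data, and their limma adjusted p lay between 0.308 and 1. Settings with 0 calls over all genes, given below, could not call a pathway gene. Among alternatives with all 4 libraries, an unadjusted limma p under 0.05 was reached by 2 of the 7 genes with equal medians and by 1 with quantile normalization. Of the 8965 tested genes, 1222 and 1148 reached it in these 2 settings. Some of the 7 genes also reached it when a Phf7 bam library was left out. The sign of the change held in 98 of 105 values, and the 7 others arose with a library left out. Over the libraries left out in turn, the change lay between -0.20 and 0.0040 for dome, -0.10 and 0.037 for hop, -0.0022 and 0.22 for Stat92E, -0.037 and 0.36 for Socs36E, and -0.26 and 0.053 for ken, so no direction can be read for these 5 genes. Ptp61F (0.09 to 0.35) and Su(var)2-10 (-0.26 to -0.04) kept their signs. The median change over all tested genes also moved, from 0.031 in the main fit to 0.115 without Phf7 bam replicate 1 and -0.059 without Phf7 bam replicate 2. smt3 changed sign with quantile normalization (-0.0012) and lay between -0.10 and 0.16 with a library left out. Of the 22 other pathway genes, robust moderation called 1 higher (TotC) and 1 lower (Cdk4), against 217 and 90 of all 8965 tested genes. The crossed pairing called 1 higher (TotC, limma adjusted p = 0.0179) and 0 lower, against 98 and 35 of all 8965. Without bam replicate 2 the change of TotA was 2.41. TotA ranged in limma adjusted p from 0.0161 to 0.940 over its alternatives, TotC from 1.28e-08 to 0.412 and Cdk4 from 0.0116 to 1.

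Over all genes, limma called 11 higher and 10 lower, 0 and 0 with no filter (1051 at an unadjusted p under 0.05), 20 and 17 with a mean of at least 5 FPKM, 7 higher with quantile normalization, 217 and 90 with robust moderation, and 98 and 35 with the crossed pairing. Leaving out a library gave 0 to 45 higher and 0 to 56 lower, with 0 without either library of Phf7 bam (1432 and 979 at an unadjusted p under 0.05), and Phf7 then lost its call (limma adjusted p = 0.141 and 0.105), as it did with no filter (0.192). Deviations of libraries with the same replicate number correlated at -0.37, so the numbers do not pair them. The replicate block gave 8 higher and 10 lower, with 0 pathway genes called. The causes were not tested. A genotype left with 1 library is assumed to vary like the other.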

Other observations

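Some neighbours of the pathway loci, and 1 hub marker, had values that did not overlap between the genotypes, and these were picked after their values were seen. Of all 14664 genes, 17.5% were higher and 12.1% were lower in Phf7 bam testes without overlap. MtnD, a metallothionein gene that lies 397 bp from Stat92E on 3R, had 29.5 and 27.7 FPKM in Phf7 bam testes, against 46.8 and 54.7 FPKM in bam testes (change -0.80, SE 0.125, limma adjusted p = 0.224; 0.0454 with the crossed pairing; over all alternatives from 2.24e-05 with robust moderation to 0.913). CG11750, which overlaps hop by 38 bp, had 45.7 and 47.5 FPKM in Phf7 bam testes, against 35.9 and 37.4 FPKM in bam testes (change 0.34, SE 0.101, limma adjusted p = 0.667; over all alternatives from 0.235 to 1). The hub and stem cell gene esg, the only 1 of the 4 hub markers whose groups did not overlap, had 1.26 and 1.21 FPKM in Phf7 bam testes, against 2.70 and 2.89 FPKM in bam testes (change -0.76, SE 0.201, limma adjusted p = 0.578; over all alternatives from 0.0294 with robust moderation to 0.889).

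The other Turandot genes of the tables were under 1 FPKM in all libraries. TotB, which lies next to TotC, had 0.362 and 0.690 FPKM in Phf7 bam testes and 0.419 and 0.342 FPKM in bam testes. TotZ was listed at 0 in all 4 libraries, and TotF was listed at 0 in all but Phf7 bam replicate 1, where it was at 0.154 FPKM.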
